A study of Sus scrofa with 2 samples.

Results

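Immediate-early genes were followed through the nuclei of the pig pancreas. The symbols looked up were FOS, FOSB, JUN, EGR1, ATF3 and DUSP5, and 5 of the 6 were found among the 31908 genes of the deposited gene table. JUN carried no symbol there. The gene that the reference name table calls JUN (ENSSSCG00000031912) is given beside the 5 members and is not counted as a member. The samples were 1 wild-type Bama pig (WT) and 1 transgenic Bama pig (PIGinH11, with knocked-in GIPRdn, hIAPP and PNPLA3I148M), each giving 1 single-nucleus RNA library from about 0.2 g of the body of the pancreas. Both animals were 18 months old. Both had received a control diet up to 6 months of age and then, for 12 months, a high-fat and high-sucrose diet, in which pork lard made up 10%, sucrose 37% and the control diet the other 53%. The WT animal had therefore also been given the diabetogenic diet, and no animal on ordinary feed entered the comparison.

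Immediate-early genes are transcribed within minutes of a signal at the cell surface, without any need for new protein. Growth factors, hormones, calcium, stress and the handling of tissue all switch them on through MAP kinases and the factors SRF and CREB, and their short-lived RNAs vanish soon after the signal ends. FOS, FOSB, ATF3 and JUN encode subunits that pair to form AP-1 and related bZIP transcription factors. EGR1 encodes a zinc-finger transcription factor that answers to ERK signaling, and DUSP5 encodes a nuclear phosphatase that removes the activating phosphates from ERK. In the exocrine pancreas this programme is known from injury and from secretagogue stimulation.

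The 2 libraries differed in depth. The WT matrix held 55784067 UMIs in 13619 barcodes and the PIGinH11 matrix 26228811 UMIs in 14964 barcodes, with medians of 3216 and 1181.5 UMIs per barcode. After filtering, 11854 WT and 13126 PIGinH11 nuclei were kept, and 47 of the kept barcodes occurred in both libraries. Nuclei were clustered without the immediate-early and heat-shock genes and named from fixed markers, giving 11 classes called "like" their cell type. Acinar-like nuclei (8432 WT, 9057 PIGinH11) and ductal-like nuclei (2151 WT, 2184 PIGinH11) were the most numerous. Ductal-like nuclei included a cluster of 351 PIGinH11 nuclei without any WT nucleus. With 1 library in each group there is no spread between animals. No p-value was computed, intervals are 95% intervals for counting error only, and a difference between the libraries cannot be told apart from a difference between 2 pigs, 2 tissue pieces or 2 preparations. Levels are given as CPM, the UMIs of a gene per 1000000 UMIs of the class. How far they can be compared between genes was not tested.

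FOS (ENSSSCG00000002383, chromosome 7, positions 98449508 to 98451971 in RefSeq on Sscrofa11.1) encodes the AP-1 subunit that is classically taken as the mark of recent activation. It gave 1569 UMIs in the kept WT nuclei and 215 in the kept PIGinH11 nuclei. In WT the stellate-like nuclei were highest at 222.4 CPM (189.7 to 259.2), and 34.4% of them held a FOS UMI. They were followed by macrophage-like nuclei at 119.7 CPM (59.8 to 214.2), mural-like nuclei at 104.5 CPM (55.7 to 178.7) and endothelial-like nuclei at 65.2 CPM (51.1 to 82.2). The intervals of the last 3 classes overlapped, so their order among themselves is not fixed by these counts. The macrophage-like interval also overlapped the stellate-like one. Acinar-like nuclei stood at 40.6 CPM (38.4 to 42.9) and ductal-like nuclei, the lowest of the 11 classes, at 5.83 CPM (4.32 to 7.68). The intervals of alpha-, beta-, delta- and lymphocyte-like nuclei, which held few FOS UMIs, overlapped the ductal-like one. In PIGinH11 the endothelial-like nuclei came first, at 86.2 CPM (70.7 to 104.1), beside stellate-like nuclei at 77.8 CPM (54.5 to 107.7), with overlapping intervals. Acinar-like nuclei had 2.70 CPM (1.95 to 3.65), ductal-like nuclei 4.53 CPM (2.54 to 7.48), and no FOS UMI was found in 134 beta-like nuclei, which allows a share of up to 2.24%. The acinar-like nuclei thus gave 78.1% of the FOS UMIs in WT and 19.5% in PIGinH11.

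**Figure D1:**
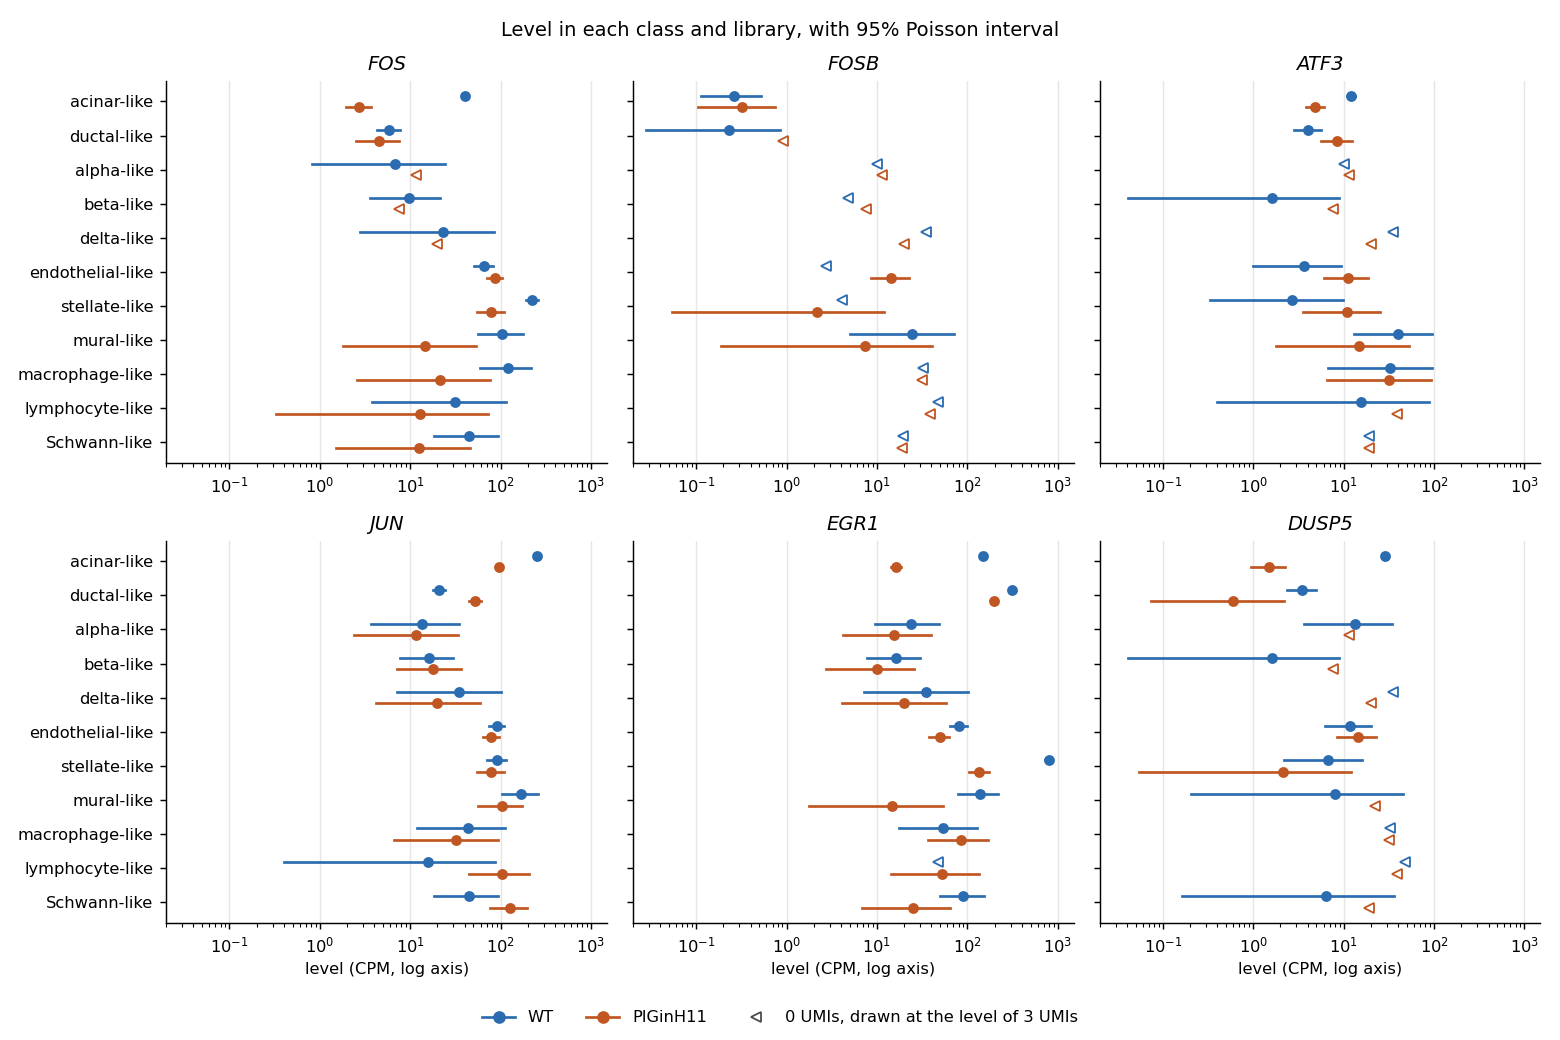
Level of FOS, FOSB, ATF3, JUN, EGR1 and DUSP5 in each of the 11 classes (rows), in CPM on a log axis, with WT in blue, PIGinH11 in orange, exact Poisson intervals as lines, and open triangles at the level of 3 UMIs where none was counted. FOS and DUSP5 show the widest gaps between the libraries in acinar-like nuclei (40.6 against 2.70 CPM and 29.0 against 1.48 CPM), while in endothelial-like nuclei the intervals of the same genes overlap.

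FOSB (ENSSSCG00000031616, chromosome 6, positions 51836780 to 51844531) encodes the close relative of FOS that can replace it in AP-1. It was the scarcest member, with 13 UMIs in WT and 25 in PIGinH11. Acinar-like nuclei held 8 UMIs in WT (0.265 CPM, 0.115 to 0.522) and 5 in PIGinH11 (0.322 CPM, 0.105 to 0.751), which did not differ beyond counting error. The only class with more than 8 UMIs in either library was the endothelial-like class of PIGinH11. It held 18 UMIs (14.4 CPM, 8.51 to 22.7) in 7 of 553 nuclei, and 1 of these nuclei held 8 of the 18. WT endothelial-like nuclei held 0 UMIs in 279 nuclei, which allows a share of up to 1.08% and a level of up to 2.72 CPM. FOSB was not seen in alpha-, beta-, delta-, macrophage-, lymphocyte- or Schwann-like nuclei of either library.

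ATF3 (ENSSSCG00000015595, chromosome 9, positions 130772259 to 130829678) encodes a bZIP factor of the stress response that mostly represses its targets. It gave 420 UMIs in WT and 127 in PIGinH11. The WT acinar-like nuclei stood at 12.2 CPM (10.9 to 13.5) and the PIGinH11 acinar-like nuclei at 4.83 CPM (3.80 to 6.05). The order was the opposite in ductal-like nuclei, with 4.08 CPM (2.84 to 5.67) in WT and 8.46 CPM (5.62 to 12.2) in PIGinH11. The highest single values, 40.2 CPM in WT mural-like nuclei and 32.7 CPM in WT macrophage-like nuclei, rested on 5 and 3 UMIs.

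JUN, the usual partner of FOS in AP-1, gave more UMIs in acinar-like nuclei than any member, with 7650 UMIs in WT (253.5 CPM) and 1501 in PIGinH11 (96.6 CPM). In ductal-like nuclei it stood at 21.0 CPM in WT and 51.7 CPM in PIGinH11. JUN and ATF3 both had lower acinar-like and higher ductal-like levels in PIGinH11 as counted. For ATF3 neither difference kept an interval off 0 on counts thinned to 500 UMIs per nucleus, and both changed sign with a limit of 1300 UMIs per nucleus. For JUN the thinned shares of nuclei stayed apart in acinar-like nuclei and overlapped in ductal-like nuclei. The difference between the 2 classes was not tested.

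EGR1 (ENSSSCG00000014336, chromosome 2, positions 140440829 to 140445302) gave 7954 UMIs in WT and 1075 in PIGinH11, the most of the 5 members. WT stellate-like nuclei reached 793.4 CPM (730.4 to 860.3), and 79.5% of them (73.1 to 84.9%) held an EGR1 UMI. WT ductal-like nuclei followed at 308.8 CPM (297.1 to 320.7) and WT acinar-like nuclei at 149.9 CPM (145.6 to 154.3). These 3 classes differed from each other beyond counting error. WT mural-like nuclei, at 136.7 CPM (79.6 to 218.8), overlapped the acinar-like ones, and alpha- and beta-like nuclei were low at 23.6 and 16.1 CPM. In PIGinH11 the ductal-like nuclei came first at 195.3 CPM (180.5 to 210.9), then stellate-like nuclei at 136.1 CPM (104.6 to 174.2). The PIGinH11 acinar-like nuclei lay in the range of the endocrine classes, at 16.2 CPM (14.3 to 18.4) beside 15.3 CPM (4.17 to 39.2) in alpha-like and 10.1 CPM (2.75 to 25.8) in beta-like nuclei.

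DUSP5 (ENSSSCG00000040815, chromosome 14, positions 120906340 to 120919398) had the largest acinar-like share of the 5 members in WT, 91.8% of its 953 UMIs. Their level was 29.0 CPM (27.1 to 31.0), against 3.50 CPM (2.36 to 4.99) in ductal-like and 11.8 CPM (6.27 to 20.1) in endothelial-like nuclei. In PIGinH11 only 47 UMIs were found. The acinar-like nuclei held 23 of them, at 1.48 CPM (0.939 to 2.22), and the endothelial-like nuclei held 18, at 14.4 CPM (8.51 to 22.7). The class with the highest DUSP5 level was thus acinar-like in WT and endothelial-like in PIGinH11. In WT the interval of alpha-like nuclei (3.68 to 34.5 CPM) overlapped the acinar-like one. No DUSP5 UMI was found in 3 WT and 7 PIGinH11 classes, so neither lead over the small classes is fixed by these counts.

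In acinar-like nuclei, all 4 members with enough UMIs for the comparison were lower in PIGinH11. On the log2 scale the ratio of PIGinH11 to WT was -4.29 for DUSP5 (-4.96 to -3.70), a 19.6-fold difference, and -3.91 for FOS (-4.39 to -3.47), a 15.0-fold difference. It was -3.21 for EGR1 (-3.40 to -3.03), 9.24-fold, and -1.33 for ATF3 (-1.71 to -0.97), 2.52-fold. A gene was counted as lower when its level was at least 2-fold lower and the interval excluded 0, which held for 4 of 4 members and for 2.75% of the 19124 genes with at least 20 UMIs over both libraries. FOSB had 13 UMIs and was not part of that count, and its log2 ratio was 0.28 (-1.68 to 2.07). The members had been chosen with results of these libraries known, and their count is a description. Of the 19124 genes, 8 had a smaller ratio than DUSP5, 12 than FOS, 42 than EGR1 and 316 than ATF3. JUN was 2.62-fold lower, with a log2 ratio of -1.39 (-1.47 to -1.31). The genes as a whole lay higher in PIGinH11 on this scale, with a median log2 ratio of 0.29 over those tested, and a scaling that sets the median of well-counted genes to 0 lowered each of these log2 ratios by a further 0.23.

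**Figure D2:**
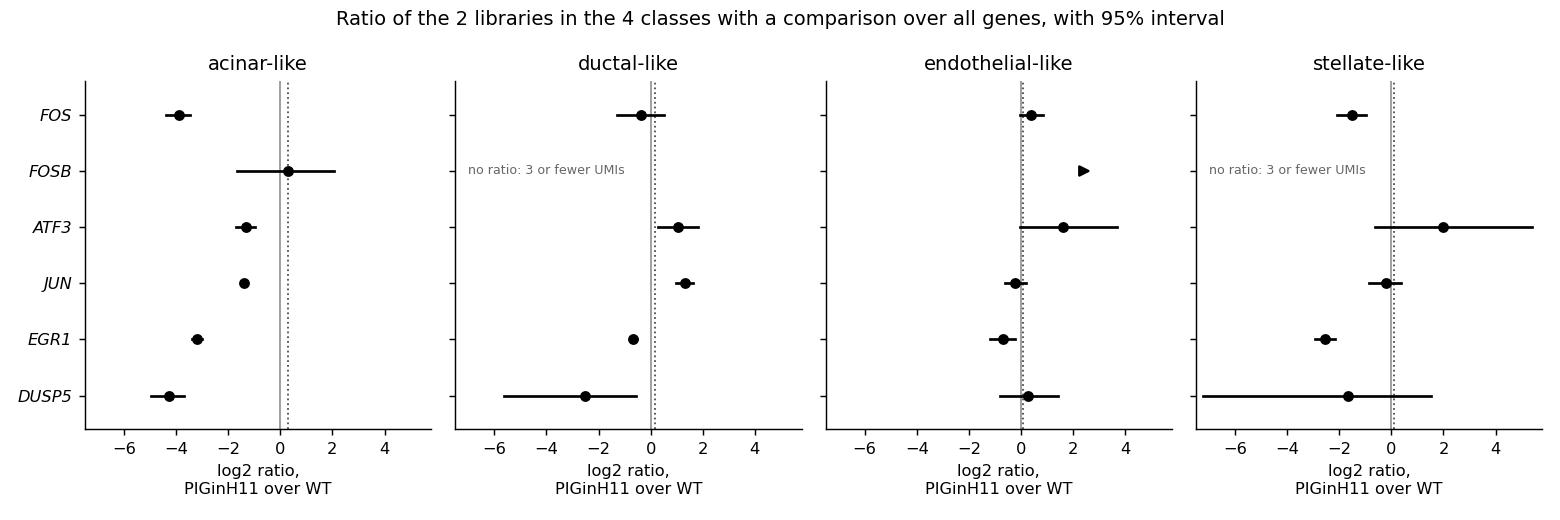
Log2 ratio of PIGinH11 over WT (x axis) for 5 members and JUN (rows) in acinar-, ductal-, endothelial- and stellate-like nuclei, with exact conditional binomial intervals as lines, a solid line at 0 and a dotted line at the median of all genes tested in the class. In acinar-like nuclei DUSP5, FOS and EGR1 lie between -4.29 and -3.21. In endothelial-like nuclei FOS and DUSP5 lie at 0.40 and 0.29 with intervals that include 0. The triangle for FOSB marks the ratio with 3 UMIs put in place of 0 in WT.

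Nuclei of the PIGinH11 library were shallower (median 1205 UMIs in acinar-like nuclei, against 2846.5 in WT), so the share of nuclei holding a UMI was taken again after thinning every nucleus to 500 UMIs. FOS was found in 8.07% of WT and 0.431% of PIGinH11 acinar-like nuclei as counted, and in 1.46% (1.21 to 1.74%) and 0.121% (0.061 to 0.217%) after thinning. EGR1 went from 23.8% and 2.22% as counted to 5.04% (4.58 to 5.53%) and 0.850% (0.672 to 1.06%), and DUSP5 from 7.97% and 0.254% to 1.57% (1.31 to 1.85%) and 0.088% (0.038 to 0.174%). These 3 members stayed apart at equal depth. ATF3 did not: its thinned shares were 0.439% (0.309 to 0.604%) in WT and 0.320% (0.215 to 0.460%) in PIGinH11, and its log2 ratio on thinned counts was -0.44 (-1.19 to 0.28). Under a limit of 1300 UMIs per nucleus, which left 1501 WT and 5026 PIGinH11 acinar-like nuclei, the log2 ratio was -2.92 for FOS, -1.61 for EGR1 and -4.30 for DUSP5, and ATF3 turned to 1.05 (-0.49 to 3.03).

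Free RNA in the droplets gives some UMIs to nuclei that do not express a gene. It was not measured, and the shares of low classes are set beside the acinar-like shares. UMIs in the low classes can also be their own expression. In WT, FOS was in 2.28% of ductal-like nuclei at a median of 3404 UMIs, below the 8.07% of acinar-like nuclei, and EGR1 was in 6.06% of beta-like nuclei at a median of 4092 UMIs, below the 23.8% of acinar-like nuclei. DUSP5 was in 0.758% of WT beta-like nuclei. In PIGinH11 the FOS share of acinar-like nuclei was 0.431%, beside 0.595% (0.317 to 1.02%) in ductal-like nuclei at a median of 1027 UMIs and 0 of 134 beta-like nuclei. The EGR1 share was 2.22%, beside 2.99% (0.819 to 7.47%) in beta-like nuclei at a median of 2182.5 UMIs, which rested on 4 UMIs. ATF3 was in 0.784% of PIGinH11 acinar-like nuclei and in 0 of 134 beta-like nuclei. The FOS and EGR1 shares of PIGinH11 acinar-like nuclei were thus not above those of every low class, and the part of free RNA in them was not tested.

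In ductal-like nuclei the members went in both directions. EGR1 was 1.58-fold lower in PIGinH11 (log2 ratio -0.66, -0.79 to -0.54), short of 2-fold. FOS did not differ beyond counting error (50 and 15 UMIs, log2 ratio -0.36, -1.30 to 0.49). DUSP5 was lower on 30 and 2 UMIs (log2 ratio -2.53, -5.64 to -0.55), and ATF3 was higher on 35 and 28 UMIs (1.05, 0.28 to 1.81). Thus 1 of 4 members with enough UMIs was counted as lower, where 2.91% of the 14921 genes tested were, and 1 of 4 as higher, where 16.3% were. On counts thinned to 500 UMIs both calls were lost, at -1.02 (-4.49 to 1.78) for DUSP5 and -0.022 (-1.76 to 1.72) for ATF3, while EGR1 kept a log2 ratio of -0.73 (-0.95 to -0.50). The EGR1 level was lower in PIGinH11 in ductal-like clusters 5 (303.3 and 241.9 CPM) and 6 (433.4 and 237.6 CPM) and not in cluster 15 (232.8 and 279.8 CPM). The cluster seen only in PIGinH11 had the lowest value, 117.3 CPM.

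Stellate-like nuclei, the collagen-producing cells of the pancreas, followed the acinar pattern for the 2 members that could be compared. EGR1 was 5.83-fold lower in PIGinH11 (585 and 63 UMIs, log2 ratio -2.54, -2.94 to -2.17) and FOS 2.86-fold lower (164 and 36 UMIs, -1.52, -2.08 to -0.99). Both were counted as lower, where 4.21% of the 7911 genes tested in this class were. The share of nuclei with an EGR1 UMI was 79.5% in WT and 13.7% in PIGinH11 as counted, and 31.8% (25.3 to 38.8%) and 6.64% (3.92 to 10.4%) after thinning. In the smaller mural-like class EGR1 had 17 and 2 UMIs (-3.21, -6.37 to -1.14) and FOS 13 and 2 (-2.83, -6.02 to -0.68). The 17 EGR1 UMIs of WT lay in 6 of 37 nuclei, and 1 nucleus held 8 of them. The intervals treat these UMIs as independent. Macrophage-like nuclei gave 11 and 2 FOS UMIs (-2.49, -5.71 to -0.30), but 5 and 8 EGR1 UMIs (0.65, -1.15 to 2.60). EGR1 in Schwann-like nuclei was lower on 14 and 4 UMIs (-1.84, -3.90 to -0.17), but its thinned shares overlapped.

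In endothelial-like nuclei EGR1 was the only member with an interval below 0. FOS did not differ beyond counting error (72 UMIs in 31 WT nuclei, 108 UMIs in 54 PIGinH11 nuclei, log2 ratio 0.40, -0.04 to 0.85), nor did DUSP5 (13 and 18 UMIs, 0.29, -0.82 to 1.44). ATF3 had 4 and 14 UMIs (1.62, -0.05 to 3.69), and FOSB had 0 and 18 UMIs. With 3 UMIs put in place of 0 in WT, FOSB was 5.28-fold higher, which leaves out the counting error of the 18 UMIs. With the counting error of both libraries the lower limit of its log2 ratio was 1.95. By nuclei, FOSB was in 1.27% (0.51 to 2.59%) in PIGinH11 and 0% (exact interval 0 to 1.31%) in WT, which overlapped. None of the 18 FOSB UMIs was left with the limit of 1300 UMIs. EGR1 was 1.63-fold lower (89 and 62 UMIs, -0.71, -1.20 to -0.22). Its thinned shares were 3.58% (1.73 to 6.49%) in WT and 1.99% (0.997 to 3.53%) in PIGinH11, which overlapped. None of the 3 members with 20 UMIs or more passed the 2-fold limit in either direction, where 3.62% of the 9917 genes tested were lower and 6.87% higher. A single PIGinH11 nucleus held 19 of the 108 FOS UMIs. FOS was present in both endothelial-like clusters of PIGinH11, at 111.7 CPM in cluster 9 and 54.1 CPM in cluster 13, which holds that nucleus. Their WT values were 84.9 and 22.9 CPM. Whether the ratio of the libraries differs between endothelial-like and acinar-like nuclei was not tested.

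Not every class had enough UMIs for a ratio. EGR1 had one in 10 of the 11 classes, with an interval below 0 in 6 of the 10 and above 0 in 0. FOS had one in 8 classes, with an interval below 0 in 4 and above 0 in 0. DUSP5 was below 0 in 2 of 5 classes, ATF3 below in 1 and above in 1 of 5, and FOSB above in 1 of 2. The share of all genes with such intervals was not counted. After thinning, EGR1 shares stayed apart in acinar-, ductal- and stellate-like nuclei. Their intervals overlapped in endothelial-like nuclei (3.58% in WT, 1.99% in PIGinH11), Schwann-like nuclei (4.3 and 1.5%) and mural-like nuclei (2.7 and 0%). Thinned FOS shares stayed apart in acinar- and stellate-like nuclei. Their intervals overlapped in mural-like (8.1 and 0%) and macrophage-like nuclei (3.3 and 0%). The endocrine classes, where hormones are made, held few UMIs of the members. WT beta-like nuclei held 6 FOS and 10 EGR1 UMIs in 132 nuclei and PIGinH11 beta-like nuclei 0 and 4 in 134, and alpha-like nuclei held 2 and 7 UMIs in WT and 0 and 4 in PIGinH11. With so few nuclei, a difference in these classes was not detectable.

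The wider immediate-early list went in both directions in acinar-like nuclei. A list of 53 immediate-early genes present in the files was used, of which 44 had enough UMIs. Of these, 11 were at least 2-fold lower in PIGinH11 (2.75% of all genes tested were) and 4 at least 2-fold higher (20.7% of all genes tested were), with a median log2 ratio of -0.17 beside 0.29 over all genes tested. Without the members and JUN, 6 of 39 were lower and 4 of 39 higher, with a median of 0.13. The 4 smallest ratios of the list belonged to DUSP5, FOS, EGR1 and IER2, a nuclear protein of the early growth response, which had 21 and 2 UMIs (-2.44, -5.57 to -0.40). The 4 largest belonged to IER5, a relative of IER2 (1.25, 0.39 to 2.14), DUSP8, a phosphatase of stress-activated MAP kinases (1.07, 0.48 to 1.66), KLF4, a Kruppel-like factor (1.02, 0.13 to 1.91), and NR4A1, an orphan nuclear receptor (1.01, 0.43 to 1.60). All 4 were scarce, with at most 3.41 CPM in either library. Genes with more UMIs also had intervals off 0 short of 2-fold, in both directions. Examples named after their values were seen are TRIB1 (25.2 and 50.0 CPM, 0.99, 0.84 to 1.14) and DUSP4 (210.9 and 124.2 CPM, -0.76, -0.84 to -0.69). 

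**Figure D3:**
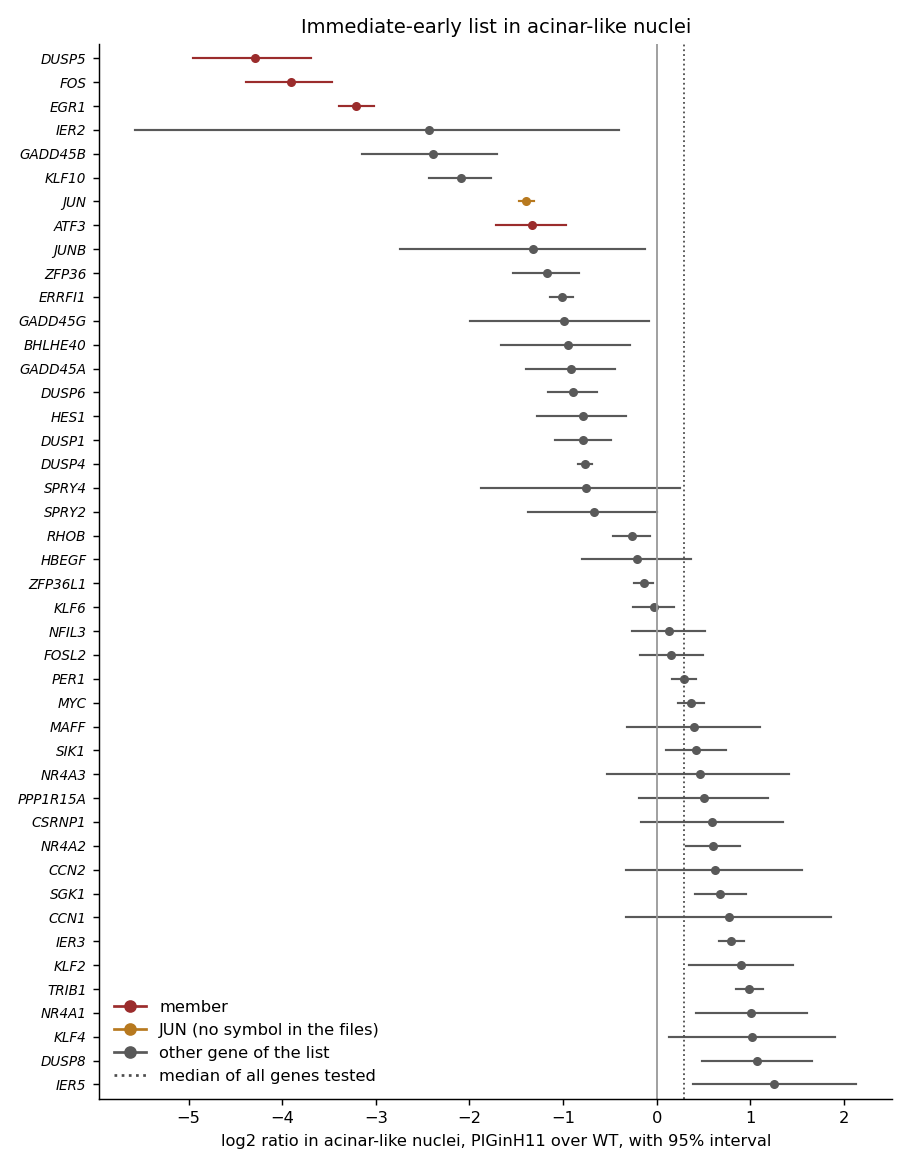
Log2 ratio of PIGinH11 over WT in acinar-like nuclei (x axis, with exact intervals as lines) for the 44 tested genes of the immediate-early list (rows), members in red, JUN in amber, other genes in grey, and a dotted line at the median of all genes tested. DUSP5, FOS and EGR1 stand apart at the left, and the ratios of the list run from -4.29 to 1.25.

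The list was also counted in the other large classes. In ductal-like nuclei 8 of 33 tested genes were lower (2.91% of all genes tested were) and 5 higher (16.3% of all genes), with a median of -0.30 beside 0.18 over all genes. In stellate-like nuclei 7 of 24 were lower (4.21% of all genes) and 1 higher (6.27%), with a median of -0.62 beside 0.09. In endothelial-like nuclei 0 of 28 were lower (3.62% of all genes) and 4 higher (6.87%), with a median of 0.00 beside 0.08. The 4 genes, named after their values were seen, were BHLHE40, a clock-linked repressor (12.7 and 60.7 CPM), FOSL2, an AP-1 subunit (32.6 and 95.8 CPM), ERRFI1, an inhibitor of the EGF receptor (13.6 and 38.3 CPM), and MAFF, a small bZIP factor (14.5 and 29.5 CPM).

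The kinases and factors that drive immediate-early transcription were counted next. Of 15 such genes tested in acinar-like nuclei, which included SRF and CREB1, 0 were at least 2-fold lower in PIGinH11 (2.75% of all genes tested were) and 1 was higher (20.7% of all genes tested were), ELK3, named after its value was seen (3.51 and 7.08 CPM). Their median log2 ratio was 0.00 beside 0.29 over all genes tested. Smaller differences with intervals off 0 occurred in both directions, as for SRF (-0.55, -1.07 to -0.06) and the kinase gene RPS6KA5 (0.57, 0.42 to 0.71), both chosen after their values were seen. RNA levels carry no information on the activity of these kinases.

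Heat-shock genes differed in the same direction as the members. Of 15 tested in acinar-like nuclei, 8 were at least 2-fold lower in PIGinH11 (2.75% of all genes tested were) and 0 higher (20.7% were), with a median log2 ratio of -1.05. HSP70.2, the inducible HSP70 chaperone, stood at 842.5 CPM in WT and 10.8 CPM in PIGinH11 (log2 ratio -6.28, -6.51 to -6.07), a larger gap than for any member. In the other large classes most did not pass that limit: 6 of 13 were at least 2-fold lower in ductal-like nuclei (2.91% of all genes were), 4 of 13 in endothelial-like nuclei (3.62%) and 4 of 10 in stellate-like nuclei (4.21%), with 0 at least 2-fold higher in each. HSP90AA1, a chaperone gene named after its values were seen, was 0.27 higher on the log2 scale in ductal-like nuclei (0.22 to 0.33) and 0.65 lower in acinar-like nuclei. The part of tissue handling or RNA quality in these values was not tested.

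Markers of other cell types were summed inside the acinar-like nuclei. Acinar markers summed to 22330 CPM in WT and 19720 in PIGinH11 over 11 genes, with none at 0. Stellate markers, the class with the highest EGR1 and FOS in WT, summed to 28.5 and 51.2 CPM over 10 genes, and endothelial markers to 91.3 and 156.7 CPM over 12 genes, with none of either list at 0. Ductal markers summed to 1010 and 955.9 CPM over 11 genes, lymphocyte markers to 939.8 and 626.7 CPM over 11 genes, and Schwann markers to 130.2 and 93.98 CPM over 7 genes. The other sums, of endocrine, mural and macrophage markers, were higher in PIGinH11. The sums of other cell types thus went in both directions, and their part in the members' values was not tested.

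In WT acinar-like nuclei the members were detected together more often than their single frequencies give. Of these nuclei, 5659 held none of the 5 members, 2067 held 1, 567 held 2, 130 held 3, and 9 held 4 or more. The 706 nuclei with at least 2 members (8.37%) were deeper than those with none, with medians of 5929.5 and 2232 UMIs, so the expectation was formed within depth deciles. It was 581.5 nuclei, and the observed number was 1.21 times that (1.13 to 1.31). In PIGinH11, 10 acinar-like nuclei (0.110%) held at least 2 members where 4.62 were expected, a ratio of 2.16 (1.04 to 3.98). This interval stayed just above 1 with 20 depth strata (2.12, 1.02 to 3.91). It included 1 without doublet removal (1.90, 0.91 to 3.50) and with nuclei thinned to 500 UMIs (3.96, 0.48 to 14.3). The same held with the doublet rate set to its double and with the limit of 1300 UMIs. An excess in PIGinH11 is thus not fixed by these counts. With nuclei thinned to 500 UMIs the WT ratio was 2.52 (1.83 to 3.39) on 44 nuclei, and with the acinar-like cluster as a further stratum 706 nuclei were observed for 602 expected. Doublets could add to such nuclei. With the doublet rate set to its double, 598 nuclei were observed for 492 expected.

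The pairs differed in their ratio of observed to expected nuclei. FOS and EGR1 were found together in 400 WT acinar-like nuclei for 242.8 expected (1.65, 1.49 to 1.82). FOS and ATF3 shared 77 nuclei for 36.2 expected (2.12, 1.68 to 2.66), and EGR1 and ATF3 shared 170 for 98.9 expected (1.72, 1.47 to 2.00). DUSP5 was nearer the expectation, at 1.10 with FOS (0.88 to 1.36), 1.11 with EGR1 (0.97 to 1.26), 1.05 with ATF3 (0.72 to 1.48) and 1.11 with JUN (1.00 to 1.23). FOSB, in 8 nuclei, was too rare to be read. JUN exceeded the expectation with FOS (1.31, 1.19 to 1.43), EGR1 (1.31, 1.24 to 1.38) and ATF3 (1.52, 1.33 to 1.74). Some of these intervals overlap those of DUSP5, and differences between pairs were not tested. Among the nuclei with a FOS UMI 58.8% (55.0 to 62.6%) also held EGR1, against 20.7% (19.8 to 21.6%) of those without. After thinning to 500 UMIs these shares were 23.6% (16.4 to 32.1%) and 4.77% (4.32 to 5.25%). The corresponding shares with DUSP5 were 12.5% and 7.57% as counted, and 1.63% (0.20 to 5.75%) and 1.57% (1.31 to 1.86%) after thinning. For ATF3 they were 11.3% and 2.39% as counted, and 0.81% (0.02 to 4.45%) and 0.43% (0.30 to 0.60%) after thinning. Only 1 thinned nucleus held both FOS and ATF3. Thinned nuclei with and without EGR1 held ATF3 in 1.41% (0.52 to 3.05%) and 0.39% (0.26 to 0.55%), which also overlapped.

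**Figure D4:**
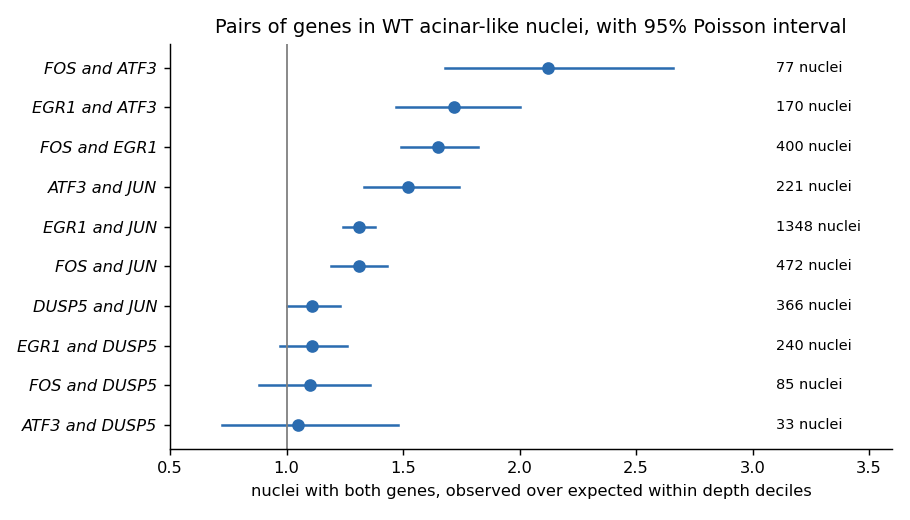
Number of WT acinar-like nuclei with UMIs of both genes of a pair, as the observed number over the number expected within depth deciles (x axis, exact Poisson intervals as lines), with the observed nuclei at the right. Pairs among FOS, EGR1, ATF3 and JUN lie between 1.31 and 2.12 and pairs with DUSP5 between 1.05 and 1.11; pairs with FOSB, which had 8 positive nuclei, are left out.

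Single nuclei held several UMIs of one member. FOS reached 14 UMIs in 1 WT acinar-like nucleus, and 40 nuclei had at least 5. In PIGinH11 the highest FOS count in an acinar-like nucleus was 3. FOS was in 8.07% of WT acinar-like nuclei with a mean of 1.80 UMIs per positive nucleus, and EGR1 in 23.8% with a mean of 2.26.

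In endothelial-like nuclei co-detection exceeded the expectation in PIGinH11, and in WT it did not beyond counting error. In PIGinH11, 20 of 553 nuclei held at least 2 members where 10.1 were expected (1.98, 1.21 to 3.05), and 3 of them held 4 or more. Of the 7 nuclei with FOSB, 6 also held FOS and 5 held EGR1. In WT the numbers were 12 nuclei for 10.1 expected (1.19, 0.61 to 2.07). Cluster was not a further stratum in this class. In PIGinH11 FOS was in 16.4% of nuclei of endothelial-like cluster 9 and 2.62% of cluster 13, and the part of this mixture in the excess was not tested. Stellate-like nuclei of WT held at least 2 members in 65 of 195 cases, 33.3%, for 58.9 expected (1.10, 0.85 to 1.41), and ductal-like nuclei of WT in 65 of 2151 for 67.4 expected (0.97, 0.74 to 1.23). In these 2 classes of WT no excess was seen beyond counting error, but both intervals also include the WT acinar-like ratio of 1.21. In PIGinH11 the ratios were 1.66 (0.76 to 3.15) in stellate-like and 1.37 (0.73 to 2.34) in ductal-like nuclei.

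Among the acinar-like clusters the factors peaked in one place in WT. Cluster 3 (2183 WT nuclei) had 60.5 CPM of FOS (55.8 to 65.5), 220.5 CPM of EGR1 (211.5 to 229.9) and 20.5 CPM of ATF3 (17.8 to 23.5), above the other WT acinar-like clusters beyond counting error, except that the ATF3 interval overlapped that of cluster 14 with its 128 nuclei. DUSP5 did not peak there alone. It stood at 42.5 CPM (35.6 to 50.4) in cluster 2 and at 33.6 CPM (30.1 to 37.4) in cluster 3, with overlapping intervals. Both lay above cluster 1, at 22.24 CPM (19.65 to 25.07). At least 2 members were found in 17.3% of cluster 3 nuclei (15.8 to 19.0%), in 9.75% of cluster 1 (8.61 to 11.0%) and in 1.75% and 1.90% of clusters 2 and 4. Median depth differed between them, with 4265 and 4460 UMIs in clusters 3 and 1 and 1407 and 1633.5 in clusters 2 and 4. Clusters 1 and 3 had about the same depth and still differed. Cluster 3 had also the most HSP70.2 of the 6, 1195 CPM beside 466.3 to 791.3 in the others.

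In PIGinH11 the summed level of the 5 members was low in every acinar-like cluster, 21.4 to 33.1 CPM, against 107.9 to 335.3 CPM in WT. FOS, EGR1 and DUSP5 were lower in PIGinH11 than in WT in clusters 1, 2, 3 and 4 with separate intervals. ATF3 was lower in cluster 1 (9.50 and 3.75 CPM) and cluster 3 (20.5 and 1.78 CPM) and not in cluster 2 (6.44 and 6.90 CPM) or cluster 4 (6.31 and 8.41 CPM). The lower ATF3 of the acinar-like class was thus seen in clusters 1 and 3 of these 4.

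**Figure D5:**
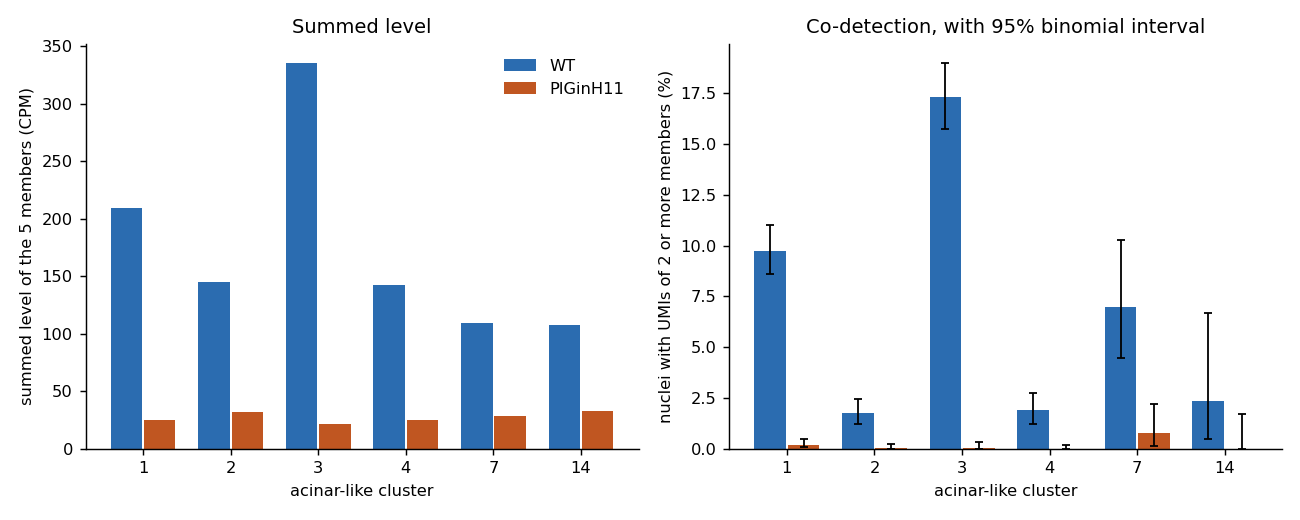
Left, summed level of FOS, FOSB, EGR1, ATF3 and DUSP5 (CPM) in the 6 acinar-like clusters of WT (blue) and PIGinH11 (orange). Right, share of nuclei (%) with UMIs of at least 2 members, with exact binomial intervals; cluster 3 of WT is highest in both, at 335.3 CPM and 17.3%.

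WT acinar-like nuclei with at least 2 members were set against those with none after weighting to the same depth deciles. The rule for both libraries left only 28 genes, because 10 PIGinH11 nuclei qualified, so the WT values, over 6967 genes, were added after the data were seen. Among the 10 genes with the largest difference were DNAJB1, an HSP40 co-chaperone (120.5 CPM against 28.2, log2 fold 1.92), HSPB1, a small heat-shock protein (1.54), HSPA6 (1.54), JUN (438.8 against 149.1, 1.53), HSPA8 (1.44), HSPA1L (1.31), HSP70.2 (1467 against 595.3, 1.29), TCIM (1.24) and PDK4, which inhibits pyruvate dehydrogenase (298.4 against 123.5, 1.24). Thus 6 of the 10 were heat-shock genes. Genes were eligible by their UMIs in the nuclei with at least 2 members, which favours genes high in those nuclei. Of these 706 nuclei, 378 lay in cluster 3, which had the most HSP70.2, and the weighting did not cover cluster. The share of heat-shock genes among the 6967 was not counted, so the 6 are a description. In nuclei with a FOS UMI HSP70.2 was found in 88.5%, against 61.5% of nuclei without, and in 43.1% (34.2 to 52.3%) against 26.2% (25.3 to 27.2%) after thinning. For DUSP5 the thinned shares were 25.0% (17.9 to 33.3%) and 26.5% (25.5 to 27.5%), which overlapped.

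The pattern of each member across the 22 sums of class and library was set beside 8136 named genes outside the immediate-early list, by Pearson correlation of log2(CPM + 5). FOS was most like VCAM1, a vascular adhesion molecule (r = 0.84), TMSB4X (0.79) and SKAP2 (0.76). ATF3 was most like NUP153 (0.86), PPP1CB (0.85) and ARID5A (0.79), and FOSB like SH3RF2 (0.85), MFGE8 (0.84) and CHST1 (0.83). EGR1 was most like CFD, the adipokine adipsin (0.77), KLHDC2 (0.74) and BAG3, a co-chaperone induced by heat shock (0.74). DUSP5 was most like XBP1, the factor of the unfolded protein response that is abundant in acinar cells (0.72), PLCB1 (0.69) and MFSD4A (0.69). Over the 11 classes of WT and of PIGinH11 apart, r was 0.78 and 0.445 for XBP1, 0.84 and 0.66 for PLCB1, and 0.78 and 0.71 for MFSD4A. For the genes most like EGR1 it was 0.71 and 0.87 (CFD), 0.85 and 0.57 (KLHDC2), and 0.81 and 0.62 (BAG3). Among the members the correlations ran from 0.09 for FOSB with EGR1 to 0.52 for FOSB with ATF3. The sums share 2 libraries and differ in depth, and the small classes rest on few UMIs. FOSB had no UMI in 8 of the 11 WT classes and 7 of the 11 PIGinH11 classes, so its correlations rest on few sums. DUSP5 had none in 3 and 7 classes, and ATF3 in 3 and 5.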

How the data were processed

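Nuclei of 1 WT and 1 PIGinH11 pancreas were sequenced with 10x Genomics chemistry. The authors deposited raw counts, UMIs per gene and barcode, per library. Submitters' processing notes name Cell Ranger 3.1.0, Seurat 3.1.1 and Sscrofa11.1, while the matrix headers name Cell Ranger 5.0.0. Kept barcodes had between 270 and 3700 genes, less than 10% mitochondrial UMIs and below 13000 UMIs (a limit of 1300 UMIs is printed in the study's methods, and was an alternative). Doublets were removed with Scrublet (scanpy 1.11.5) at 0.8% per 1000 barcodes in place of the study's caller. From 2000 variable genes, without the immediate-early, input and heat-shock lists, 30 components were corrected with Harmony and clustered with Louvain (igraph 0.11.9, resolution 1). A cluster was named from at least 3 detected fixed markers, and 841 genes without symbol were named from the reference table.

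Counts were summed per class and library. Ratios carry exact conditional binomial intervals, levels exact Poisson intervals and shares Clopper-Pearson intervals (scipy 1.17.1). They cover counting error only. Where no UMI was found, 3 counts gave the upper limit. Expected co-detection was the product of the shares within 10 depth strata. Named genes were the members, the 4 largest and 4 smallest acinar-like ratios of the immediate-early list, the 3 most alike genes per member (at least 50 CPM in 1 of the sums), and the 10 genes separating nuclei with at least 2 members. Members and lists were chosen with earlier results of these data known. In counts simulated from the acinar-like class (19515 genes, 200 of them altered), the direction was recovered for 100% of altered genes, their intervals held the true ratio for 95.5%, and 0.73% of unaltered genes were called. For the ductal-like class these values were 100%, 93.0% and 0.87%. The simulated counts were Poisson, as the intervals assume, so this checks the calculation only. It covers neither several UMIs in single nuclei nor spread between animals. Alternatives were other doublet rates, filters, clustering, scaling, denominators, thinning, weighting and free RNA subtraction. No sequence is shown, and 1 of the 10 genes is not reported here. Group and library cannot be told apart.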

Additional observations from a re-analysis of the deposited data

Results flagged for a closer look

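ATF3 and JUN were flagged because their intervals lay on opposite sides of 0 in acinar-like and ductal-like nuclei. Among the members and JUN this held for these 2 only, over the 5 classes with at least 100 nuclei in each library. Other genes of the immediate-early list did so too: SGK1 (0.68 in acinar-like and -2.68 in ductal-like nuclei), HES1 (-0.79 and 1.13), DUSP1 (-0.78 and 0.97) and PER1 (0.30 and -0.56). The share of all genes with such opposite intervals was not counted, so the 2 are a description. As log2 ratios of PIGinH11 to WT, the values were -1.33 in acinar-like and 1.05 in ductal-like nuclei for ATF3, and -1.39 and 1.30 for JUN. Each class comes from the same 2 libraries, and the difference between the classes was not tested. For ATF3 neither value kept an interval off 0 on counts thinned to 500 UMIs (-0.44 and -0.022). The thinned shares of ductal-like nuclei with JUN were 1.58% (1.10 to 2.20%) in WT and 2.79% (2.14 to 3.57%) in PIGinH11, which overlapped.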

How the results depend on the processing

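No paired analysis was possible because each group is 1 library and the labels carry no replicate numbers. In acinar-like nuclei 4 members were lower, and 3 with the limit of 1300 UMIs, on thinned counts, as a mean over nuclei (without ATF3 in each) and after free RNA subtraction (without EGR1). Of all genes tested, 2.75% were lower in the main setting. Their share under these alternatives is not given, so the 3 cannot be set against it. In ductal-like nuclei the median log2 ratio of the members stayed between -0.92 and -0.37. The median log2 ratio of the members in acinar-like nuclei, -3.21, was -2.27 with the limit of 1300 UMIs (over 4 members, as FOSB gave no ratio), -3.43 with median-of-ratios scaling, -2.73 as a mean over nuclei and -2.36 after free RNA subtraction. After subtraction EGR1 gave no value and the median is over the other 4. The subtraction took the class with the fewest UMIs per nucleus, among the 5 classes with at least 100 nuclei in each library. For EGR1 in PIGinH11 this was the acinar-like class itself, although not the lowest in CPM. ATF3 reversed in acinar-like nuclei with the limit of 1300 UMIs (1.05), and in ductal-like nuclei with that limit (-0.64) and with thinning to 500 UMIs (-0.022). The immediate-early genes past 2-fold in acinar-like nuclei numbered 15 of 44. Of these, 11 were lower and 4 higher, beside 2.75% and 20.7% of all genes tested. The number was 8 both with that limit and with thinning, each of which leaves fewer UMIs. The share of all genes under these 2 alternatives is not given, so the 8 cannot be set against it. Co-detection in WT, 1.21, was 1.62 with 1 depth stratum, 2.52 when thinned to 500 and 1.76 when thinned to 1000 UMIs. With the limit it was 1.51 (0.65 to 2.98) on 8 nuclei for 5.29 expected, not beyond counting error. With the limit of 1300 UMIs, WT stellate-like FOS and EGR1 were 335.1 and 1080 CPM, WT acinar-like FOSB, ATF3 and DUSP5 0, 2.87 and 37.3 CPM, PIGinH11 endothelial-like FOSB and DUSP5 0 and 30.6 CPM, and PIGinH11 ductal-like EGR1 255.4 CPM. As a mean over nuclei, WT stellate-like EGR1 was 955.7, PIGinH11 ductal-like EGR1 237.1, and WT acinar-like ATF3 and DUSP5 9.40 and 31.1 CPM. Without doublet removal PIGinH11 ductal-like EGR1 was 168.6 CPM. The causes were not tested. The number of nuclei limits the endocrine and immune classes.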

Other observations

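Some nuclei could not be named by the marker rule. A cluster of 354 WT and 160 PIGinH11 nuclei rich in digestive enzyme transcripts held 10 FOS UMIs in WT (7.53 CPM, 3.61 to 13.8) and 2 in PIGinH11. EGR1 gave 31 UMIs in WT (23.3 CPM, 15.9 to 33.1) and 10 in PIGinH11 (70.3 CPM, 33.7 to 129.3), and DUSP5 16 UMIs in WT (12.0 CPM) and 0 in PIGinH11. ATF3 had 1 UMI in these nuclei and FOSB none. The EGR1 intervals just separate as counted, at median depths of 3063.5 UMIs in WT and 695 in PIGinH11. On nuclei thinned to 500 UMIs, EGR1 was found in 2.83% (1.36 to 5.13%) of WT and 2.50% (0.69 to 6.28%) of PIGinH11 nuclei, which did not differ beyond counting error.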
